A study of Mus musculus with 12 samples.

Results

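The genes described here are 30 genes of mitosis and cytokinesis, the steps in which a cell separates its copied chromosomes and then divides. They were chosen by name and matched by symbol, and all 30 were found among 43629 gene identifiers in the count files. RNA of 12 mouse libraries was sequenced, 3 in each of 4 groups, all labelled C57BL/6, in a study whose title names Akt1 and reprogramming towards cardiac myocytes. The libraries labelled AGHMT came from mouse embryonic fibroblasts 3 weeks after they were given the heart transcription factors Gata4, Hand2, Mef2c and Tbx5 with Akt, the kinase that the series title calls Akt1. The GHMT libraries came from the same kind of fibroblast 3 weeks after the 4 transcription factors without it. Both of these groups were collected by a sort for green fluorescence under the αMHC promoter, that of the adult heart myosin gene Myh6. The CM libraries came from isolated ventricular cardiomyocytes of adult mice, and the E libraries from embryonic fibroblasts 3 weeks after an empty vector. The labels name no sort for CM or E, so in every comparison of AGHMT or GHMT with E the effects of the sort and of the factors cannot be told apart. Whether the libraries of a group come from different cultures or mice is not stated in the labels. A p-value below thus measures the spread between these libraries, which may be technical.

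A dividing cell switches on its mitotic genes late in the cell cycle and stops using them when it leaves the cycle. Cyclins A and B activate the kinase Cdk1, the Polo and Aurora kinases build the spindle and correct its attachments, and kinetochore proteins tie chromosomes to it. The anaphase-promoting complex then marks its targets for destruction, and the central spindle directs the cleavage of the cell. Adult mammalian cardiomyocytes have almost all left the cycle, whereas embryonic fibroblasts in culture divide. Many of these genes share 2 promoter elements, the CHR (cell cycle genes homology region), which is read by MuvB complexes such as DREAM and B-MYB-MuvB, and CCAAT boxes, which are bound by NF-Y.

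Depth differed between the groups. Gene reads per library numbered 14386407 at the lowest and 18493989 at the highest in AGHMT, 1872558 and 2200815 in GHMT, 5120230 and 15952646 in CM, and 15971154 and 33552138 in E. Levels are given as CPM, the reads of a gene scaled to a common library size with TMM factors, and a single read was worth 0.521 to 1.31 CPM in the GHMT libraries. Correlations of log2 CPM with the rest of the own group were 0.842 to 0.872 for the GHMT libraries and 0.890 for CM 3, and at least 0.947 for the others. Akt1 stood at 7.30, 12.002 and 19.6 CPM in the libraries labelled AGHMT, against 1.31, 13.5 and 13.7 CPM in GHMT. The difference did not pass (log2 fold change 0.34, adjusted p = 0.786 in edgeR's quasi-likelihood test). In E, without the factors, Akt1 stood at 104, 64.1 and 21.0 CPM. These counts thus do not show the added Akt1, and they do not contradict the label. AGHMT is therefore used below as the name of the label. Marker genes also moved with the groups. All 10 of 10 cardiomyocyte markers had reads in every group and summed to 5295 to 5748 CPM in AGHMT, 923 to 1527 CPM in GHMT, 36699 to 65168 CPM in CM and 14.03 to 25.01 CPM in E. All 10 of 10 fibroblast markers also had reads in every group and summed to 7293 to 8659 CPM in AGHMT, 3610 to 5756 CPM in GHMT, 685 to 758 CPM in CM and 17195 to 24638 CPM in E. Cardiomyocyte markers were thus highest in CM and fibroblast markers highest in E, with AGHMT and GHMT between them for both. Endothelial markers summed to 72.6 to 83.7 CPM in AGHMT (9 of 10 with reads, Cldn5 at 0), 2.62 to 11.98 CPM in GHMT (8 of 10, Cldn5 and Egfl7 at 0), 558 to 748 CPM in CM (10 of 10) and 10.2 to 13.6 CPM in E (9 of 10, Cldn5 at 0). Macrophage markers summed to 65.8 to 131 CPM in AGHMT, 2.62 to 12.4 CPM in GHMT, where Cd68, Adgre1, C1qa and C1qb were at 0, 179 to 257 CPM in CM and 15.9 to 42.7 CPM in E. Both of these lists were highest in CM. Mast cell markers summed to 310.1 to 339.7 CPM in AGHMT (5 of 7 with reads, Tpsb2 and Tpsab1 at 0), 65.5 to 162 CPM in GHMT (1 of 7, Mcpt4), 3.78 to 4.83 CPM in CM (6 of 7, Ms4a2 at 0) and 0.452 to 1.19 CPM in E (5 of 7, Tpsb2 and Tpsab1 at 0), and Mcpt4, a mast cell protease, made up most of the sum in AGHMT at 322 ± 15.5 CPM (SD, n = 3). All 6 smooth muscle and pericyte markers had reads in every group and summed to 647 to 843 CPM in AGHMT, 309 to 531 CPM in GHMT, 799 to 1304 CPM in CM and 1105 to 5545 CPM in E. Erythroid markers summed to at most 2.86 CPM in AGHMT, 0.521 CPM in GHMT and 0.459 CPM in E, with Hba-a1 and Hba-a2 at 0 in each, and to 18.4 to 23.02 CPM in CM. The mast cell sum was thus highest in AGHMT through Mcpt4, and it does not describe the other genes of that list. In CM the highest gene of the list was Hdc, at 1.66 CPM on average. Erythroid markers were highest in CM and smooth muscle markers lowest in GHMT. Mitochondrially encoded genes took 36.6% to 42.7% of gene reads in AGHMT, 27.8% to 72.2% in GHMT, 39.96% to 59.9% in CM and 3.65% to 7.36% in E. All these measures differ between the groups compared below, and their part in the results was not tested.

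Promoter sequences are shown for 7 of the genes that the results below name, and no link between sequence and level was tested. Ccnb2, Plk1 and Cdc20 were among the genes that fell most against E. Cdk1 and Hmmr passed as higher in AGHMT than in GHMT, a call that Hmmr lost under many alternatives. Cenpa and Ccnb1 did not pass as lower in AGHMT or GHMT. Each window runs 5′ to 3′ from 250 bases before the RefSeq start site to 50 bases after it (assembly GRCm38.p6). Capitals mark the CHR letters TTTGAA, the letters CCAAT and the E2F letters TTTCGCGC, on either strand, so that TTCAAA and ATTGG are in capitals too.
Ccnb2 (chr9:70421505-70421804, minus strand): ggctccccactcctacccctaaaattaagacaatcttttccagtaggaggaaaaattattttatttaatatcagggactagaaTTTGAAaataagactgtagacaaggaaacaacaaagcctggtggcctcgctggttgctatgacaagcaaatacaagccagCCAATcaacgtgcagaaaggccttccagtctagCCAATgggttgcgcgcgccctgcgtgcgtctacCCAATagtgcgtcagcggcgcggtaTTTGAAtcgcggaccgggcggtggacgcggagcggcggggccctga
Plk1 (chr7:122159185-122159484, plus strand): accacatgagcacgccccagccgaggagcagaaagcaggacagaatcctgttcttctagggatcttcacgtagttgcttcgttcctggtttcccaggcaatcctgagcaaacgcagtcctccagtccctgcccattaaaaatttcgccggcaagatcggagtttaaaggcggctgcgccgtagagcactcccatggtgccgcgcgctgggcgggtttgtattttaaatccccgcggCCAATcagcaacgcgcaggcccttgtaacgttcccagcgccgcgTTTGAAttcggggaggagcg
Cdc20 (chr4:118437294-118437593, minus strand): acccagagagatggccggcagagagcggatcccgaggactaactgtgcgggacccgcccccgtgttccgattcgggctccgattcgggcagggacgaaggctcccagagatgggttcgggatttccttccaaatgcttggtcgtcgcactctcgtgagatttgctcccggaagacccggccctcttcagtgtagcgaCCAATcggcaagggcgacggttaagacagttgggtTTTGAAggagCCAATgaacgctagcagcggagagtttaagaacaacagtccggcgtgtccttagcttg
Cdk1 (chr10:69352863-69353162, minus strand): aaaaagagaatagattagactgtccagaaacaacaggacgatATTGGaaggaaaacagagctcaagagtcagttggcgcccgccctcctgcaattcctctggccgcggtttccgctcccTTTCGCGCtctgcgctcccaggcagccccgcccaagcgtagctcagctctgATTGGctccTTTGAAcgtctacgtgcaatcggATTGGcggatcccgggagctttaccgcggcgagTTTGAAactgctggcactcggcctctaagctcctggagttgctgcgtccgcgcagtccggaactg
Hmmr (chr11:40733388-40733687, minus strand): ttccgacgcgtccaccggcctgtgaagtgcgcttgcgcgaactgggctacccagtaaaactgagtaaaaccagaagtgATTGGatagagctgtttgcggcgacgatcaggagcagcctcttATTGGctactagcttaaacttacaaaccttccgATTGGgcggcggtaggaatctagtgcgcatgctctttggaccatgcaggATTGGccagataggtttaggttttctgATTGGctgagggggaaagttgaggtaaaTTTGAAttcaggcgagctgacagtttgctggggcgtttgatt
Cenpa (chr5:30666636-30666935, plus strand): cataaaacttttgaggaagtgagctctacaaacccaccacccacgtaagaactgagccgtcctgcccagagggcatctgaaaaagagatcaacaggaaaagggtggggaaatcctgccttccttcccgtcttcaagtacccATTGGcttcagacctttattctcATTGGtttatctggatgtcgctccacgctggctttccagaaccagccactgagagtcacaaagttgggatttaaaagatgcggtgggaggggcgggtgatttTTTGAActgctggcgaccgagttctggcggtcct
Ccnb1 (chr13:100786437-100786736, minus strand): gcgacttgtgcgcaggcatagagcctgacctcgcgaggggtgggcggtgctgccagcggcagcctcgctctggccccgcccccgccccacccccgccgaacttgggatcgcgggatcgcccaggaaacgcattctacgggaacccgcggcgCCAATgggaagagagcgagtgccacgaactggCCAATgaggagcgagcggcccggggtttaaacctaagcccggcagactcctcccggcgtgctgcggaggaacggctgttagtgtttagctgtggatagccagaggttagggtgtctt

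The letters TTTGAA lay in 21 of 26 windows (80.8%) of the 24 members with a promoter in the RefSeq table, against 17.9% of all 32851 windows of that length. CCAAT lay in 23 of 26 windows (88.5%), against 37.4% of all windows, and both lay in 20 of 26 (76.9%), against 6.95%. At least 2 CCAAT boxes lay in 57.7% of the members' windows, against 11.7% of all. The E2F letters GGCGGGAA or TTTCGCGC lay in 1 window, that of Cdk1, or 3.85%, against 2.50% of all. All motifs were searched on both strands, and motif letters share bases in Cdca8 and Ube2c. No window was found for Tpx2, Ccna2, Incenp, Aurkb, Kif20a and Foxm1. A match of letters is a description and no measure of binding. The promoter of Cenpa, which passed as lower in no group, held TTTGAA and 2 CCAAT boxes, and that of Cdc20, which fell, held the same number. The promoter of Ccnb1 held 2 CCAAT boxes and no TTTGAA. Birc5 and Nusap1, which fell in all 3 groups against E, held none of the motifs in their windows.

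**Figure D1:**
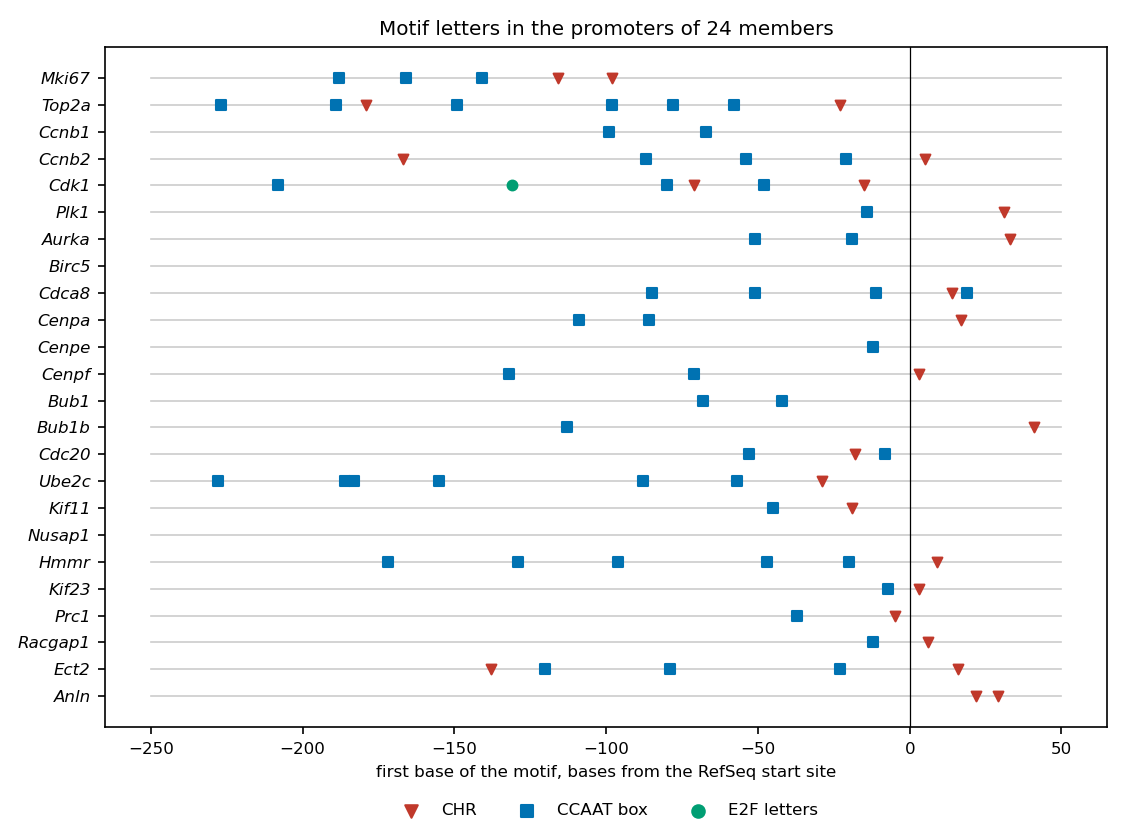
Positions of motif letters in the RefSeq promoter windows of 24 members, as bases from the start site (x axis), with 1 line per gene and 1 window per gene. Every gene that held the letters TTTGAA, except Mki67, held a copy at or after base -30, and Ccnb2, Cdk1, Top2a and Ect2 held another further upstream. CCAAT lay upstream of the copy nearest the 3′ end in all genes with both, except for 1 CCAAT box each in Cdc20 and Cdca8.

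As a group the mitosis and cytokinesis genes were lower in all 3 other groups than in the empty-vector fibroblasts. Their summed level was 306 ± 13.4 CPM in AGHMT, 209.6 ± 31.3 CPM in GHMT and 109 ± 16.4 CPM in CM, against 2196 ± 420.4 CPM in E (SD, n = 3 each). These sums are 13.9%, 9.54% and 4.98% of that in E. The lowest E library, at 1862 CPM, stood above the highest AGHMT library, at 314 CPM. Thinned to the same 612458 reads outside mitochondrial genes, the libraries held 291 to 323 reads of these genes in AGHMT, 143 to 185 in GHMT and 121 to 147 in CM, against 2093 to 3184 in E. Within bulk RNA, fewer dividing cells and less of each transcript per cell cannot be told apart. 

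All 30 genes passed the filter on low counts, which kept 15059 genes for testing. The filter ran over all 4 groups, so a gene could pass it through E alone. Such a gene could come out against E only as lower. Plk1 is an example, with 6 reads in AGHMT, 0 in GHMT and 9 in CM, against 1686 in E. Of the 30, 28 fell in AGHMT against E, where 24.6% of all tested genes fell, and the median log2 fold change was -3.26, against -0.16 over all genes. In GHMT against E, 28 fell, where 32.9% of all tested genes fell, with medians of -4.66 and -1.06. In CM against E, 29 fell, where 22.5% of all tested genes fell, with medians of -4.69 and -0.26. None of the 30 rose in any of these 3 comparisons in edgeR's quasi-likelihood test, adjusted after Benjamini and Hochberg over all tested genes, nor at an unadjusted p under 0.05, in DESeq2 or in limma. Of all tested genes, 21.9% rose in AGHMT, 19.8% in GHMT and 19.5% in CM in edgeR's test. In DESeq2 3169, 3106 and 4127 of 15059 rose, and in limma 2072, 2104 and 2749 of 14193. Every library stood below every E library for 28, 28 and 29 of the 30 in AGHMT, GHMT and CM, and for 36.9%, 43.9% and 32.6% of all tested genes. Groups that did not overlap in either direction made up 71.6%, 59.5% and 57.2% of all tested genes. The 3 comparisons share the E libraries, so their counts are not independent. The order of group means was E, AGHMT, GHMT, CM for 11 genes, E, AGHMT, CM, GHMT for 9 and E, CM, AGHMT, GHMT for 5, and neighbours in that order often overlapped.

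The depth of GHMT limits what can be said of single genes there. Plk1 and Cdc20 had no read in the 3 GHMT libraries, 9 other genes had 1 to 3 reads in all and 19 had more. With Plk1 and Cdc20 at the bound that 3 reads over the group would allow, the median of GHMT against E was -4.22, and over the 19 genes with more than 3 reads it was -3.37. For the 9 genes with 1 to 3 reads, the ratio of reads pooled over a group is given below with its exact 95% interval, which covers counting error only.

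**Figure D2:**
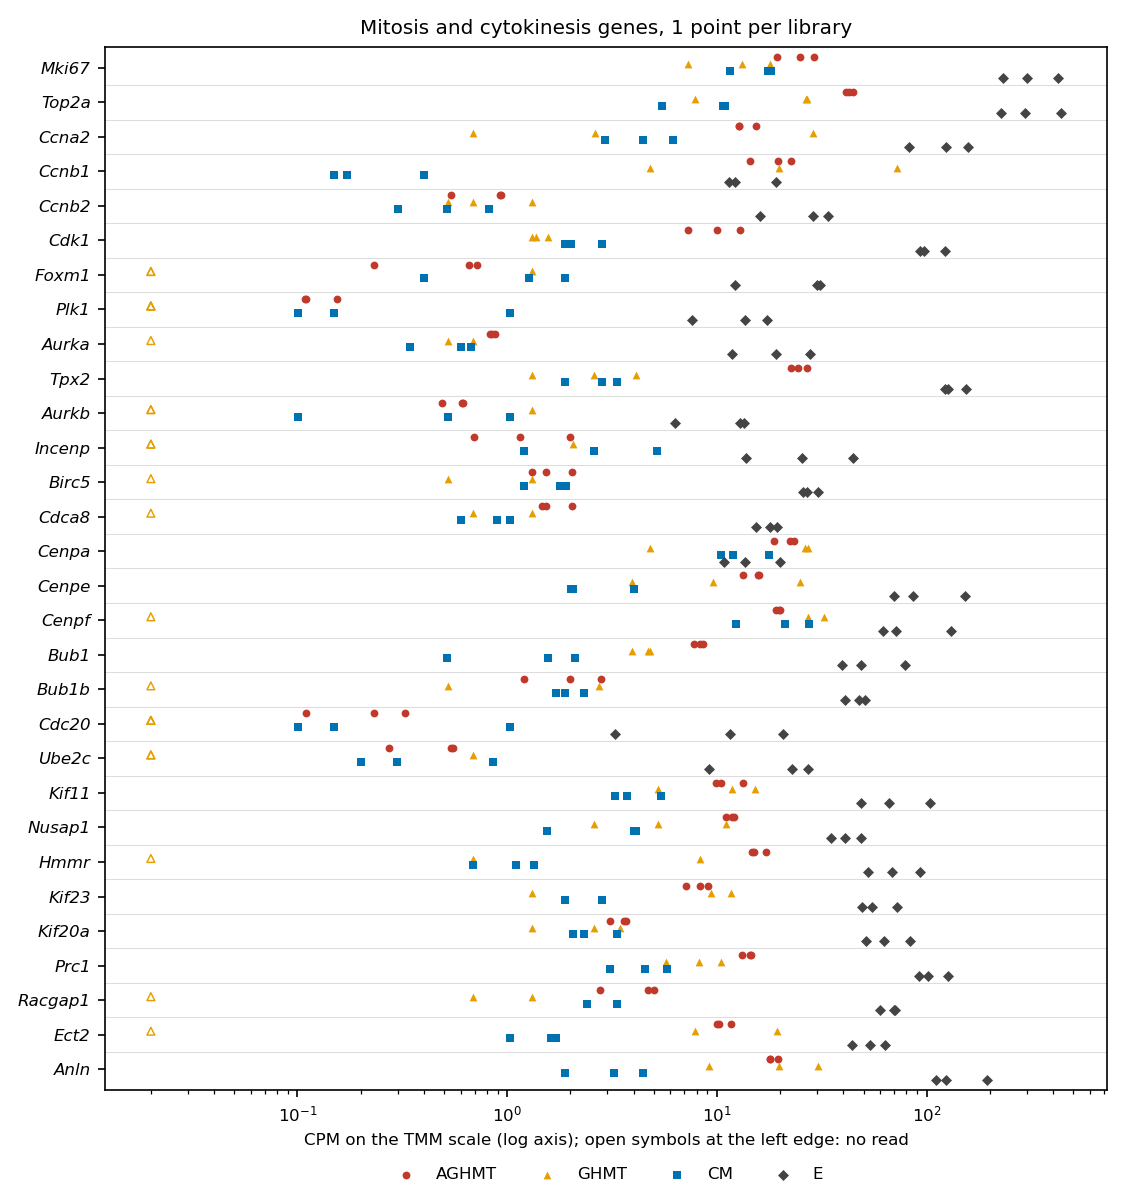
Level of each of the 30 genes in each library, in CPM on the TMM scale (log axis), with 1 symbol per library and open symbols at the left edge for libraries without a read. The E libraries stand to the right of all other libraries for 28 genes, with Ccnb1 and Cenpa as the exceptions.

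Mki67, whose protein Ki-67 coats mitotic chromosomes and is the usual marker of dividing cells, stood at 24.8, 29.1 and 19.4 CPM in AGHMT, 13.1, 7.29 and 17.9 CPM in GHMT, 18.1, 17.4 and 11.5 CPM in CM, and 230.0, 302 and 421 CPM in E. AGHMT stood above GHMT and CM, which overlapped, and all 3 stood far below E. Its log2 fold change against E was -3.70 (SE 0.38) in AGHMT, -4.66 (SE 0.42) in GHMT and -4.33 (SE 0.39) in CM, with adjusted p = 4.91e-06, 1.45e-06 and 7.37e-07 in edgeR's quasi-likelihood test. Top2a, the topoisomerase that untangles sister chromatids, stood at 42.8, 44.5 and 41.4 CPM in AGHMT, 7.87, 26.6 and 26.8 CPM in GHMT, 10.7, 10.9 and 5.50 CPM in CM, and 226, 295 and 439 CPM in E. Every AGHMT library was above every GHMT and CM library for Top2a. On the scale of mean CPM per kb of exon, Top2a was the highest of the 30 in E, at 35.5, followed by Mki67 at 31.6, and Cenpa was the lowest at 2.53. On the same scale Tpx2 was the highest in AGHMT, at 5.25, and Plk1 the lowest, at 0.0565.

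Among Cdk1 and its cyclins, 3 of 4 genes fell in AGHMT, 3 in GHMT and all 4 in CM against E. Cdk1, the kinase that drives entry into mitosis, stood at 7.30, 12.8 and 10.03 CPM in AGHMT, 1.31, 1.56 and 1.37 CPM in GHMT, 2.01, 2.82 and 1.89 CPM in CM, and 93.0, 97.0 and 122.8 CPM in E. The 4 groups formed 4 separate ranges. The lowest, that of GHMT, rests on 1, 3 and 2 reads, and Cdk1 did not pass in GHMT against CM. The change against E was -3.37 (SE 0.38) in AGHMT, -6.17 (SE 0.50) in GHMT and -5.53 (SE 0.43) in CM on the log2 scale, with adjusted p = 1.01e-05, 4.98e-07 and 1.24e-07 in edgeR's quasi-likelihood test. Ccnb2, cyclin B2, stood at 0.538, 0.936 and 0.927 CPM in AGHMT, 1.31, 0.521 and 0.687 CPM in GHMT, 0.817, 0.302 and 0.515 CPM in CM, and 33.9, 28.6 and 16.1 CPM in E. The 3 lower groups overlapped for Ccnb2, at 3.05% of the E mean in AGHMT and 2.08% in CM. The pooled level of Ccnb2 in GHMT, from 3 reads, was 2.60% of that in E (interval 0.537% to 7.62%). Ccna2, cyclin A2, had log2 fold changes of -3.15 in AGHMT (SE 0.71), -3.37 in GHMT (SE 0.76) and -4.73 in CM (SE 0.78). Its GHMT libraries spread widely, at 2.62, 28.7 and 0.687 CPM, and took in the AGHMT range of 12.8 to 15.3 CPM. The gene Exosc9 on the other strand overlaps Ccna2, and whether counting used strand is not given in the sources used here. Opposite-strand overlap also holds for Cdc23 at Kif20a, Rccd1 at Prc1, Oip5 at Nusap1, 9930104L06Rik at Cdca8, Elovl1 at Cdc20 and Tnnc2 at Ube2c.

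Among regulators of mitotic entry and exit, Plk1, Cdc20, Foxm1 and Ube2c had the 4 largest falls of the 30 in AGHMT against E. Plk1, the Polo kinase of centrosome maturation and cytokinesis, stood at 0.154, 0.110 and 0.109 CPM in AGHMT, 0.149, 0.101 and 1.03 CPM in CM, and 17.3, 13.6 and 7.61 CPM in E, with no read in GHMT. The E mean of Plk1 was 17.7 times the level that 3 reads pooled over GHMT would give. That bound covers counting error only and not the spread between libraries. The AGHMT mean was 0.968% of the E mean, or -6.63 on the log2 scale (SE 0.92), with adjusted p = 0.000151 in edgeR's quasi-likelihood test. Cdc20, which activates the anaphase-promoting complex and is the target of the spindle checkpoint, stood at 0.231, 0.110 and 0.327 CPM in AGHMT, 0.149, 0.101 and 1.03 CPM in CM, and 20.7, 11.5 and 3.27 CPM in E. The E mean of Cdc20 was 16.3 times the same floor in GHMT, with the same limit. The E libraries spread widely for Cdc20, yet the lowest of them stood above every library of the other groups. Ube2c, the ubiquitin-conjugating enzyme of the anaphase-promoting complex, had log2 fold changes of -5.43 (SE 0.77) in AGHMT and -5.55 (SE 0.80) in CM, and its 1 read in GHMT gives 1.13% of the E level (interval 0.0287% to 6.32%). Foxm1, the transcription factor that drives many genes of this group, stood at 0.231, 0.716 and 0.654 CPM in AGHMT, 1.31, 0 and 0 CPM in GHMT, 1.26, 0.403 and 1.89 CPM in CM, and 30.9, 29.8 and 12.2 CPM in E. Its 1 read in GHMT gives 0.943% of the E level (interval 0.0239% to 5.26%). Aurka, the centrosomal Aurora kinase, had log2 fold changes of -4.52 (SE 0.60) in AGHMT and -5.12 (SE 0.64) in CM, and its 2 reads in GHMT give 2.25% of the E level (interval 0.273% to 8.15%). Tpx2, the spindle protein that activates Aurora A, behaved otherwise and kept 18.3% of the E mean in AGHMT, against 1.999% in GHMT and 1.998% in CM, with 126, 122 and 155 CPM in the E libraries.

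All 4 genes of the chromosomal passenger complex, which corrects wrong attachments at the centromere and then acts at the cleavage site, fell in all 3 groups against E. Birc5, whose protein survivin carries the complex to the centromere, stood at 1.54, 2.04 and 1.31 CPM in AGHMT, 1.31, 0.521 and 0 CPM in GHMT, 1.78, 1.91 and 1.202 CPM in CM, and 30.4, 25.7 and 26.8 CPM in E. AGHMT and CM overlapped for Birc5 and its 2 GHMT reads give 1.71% of the E level (interval 0.207% to 6.18%). Aurkb, its kinase, stood at 5.25% of the E mean in AGHMT and 5.06% in CM, and the 1 read in GHMT gives 2.12% (interval 0.0536% to 11.8%). Cdca8, whose protein borealin joins the complex, stood at 9.60% and 4.81%, and the 2 reads in GHMT give 2.69% (interval 0.326% to 9.73%). Incenp, the scaffold, stood at 0.692, 1.98 and 1.15 CPM in AGHMT, 0, 0 and 2.06 CPM in GHMT, 2.60, 1.21 and 5.15 CPM in CM, and 44.5, 25.4 and 13.8 CPM in E. Its call in CM against E (log2 fold change -3.25, SE 0.77) was lost in limma on the deposited normalized values and at a common depth, with adjusted p up to 0.0845 over all alternatives, against 0.00316 in edgeR's quasi-likelihood test.

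Of the 5 centromere and checkpoint genes, 4 fell in each of the 3 groups against E. Bub1, a checkpoint kinase, stood at 8.61, 8.31 and 7.80 CPM in AGHMT, 3.93, 4.69 and 4.81 CPM in GHMT, 1.56, 2.11 and 0.515 CPM in CM, and 39.3, 48.7 and 78.9 CPM in E, in 4 separate ranges. Bub1b, the checkpoint protein BubR1, stood at 1.998, 2.81 and 1.1997 CPM in AGHMT, 0, 0.521 and 2.75 CPM in GHMT, 1.71, 2.31 and 1.89 CPM in CM, and 50.9, 40.9 and 47.5 CPM in E, and the 3 lower groups overlapped. Cenpe, the kinetochore motor that brings chromosomes to the spindle equator, stood at 15.9, 15.7 and 13.4 CPM in AGHMT, 3.93, 25.01 and 9.62 CPM in GHMT, 2.01, 4.03 and 2.06 CPM in CM, and 69.7, 86.0 and 152 CPM in E. Its GHMT libraries spread around the AGHMT range. It had log2 fold changes of -2.78 in AGHMT (SE 0.52), -2.91 in GHMT (SE 0.55) and -5.24 in CM (SE 0.60). Cenpf, a large kinetochore and nuclear matrix protein, stood at 19.1, 19.98 and 19.7 CPM in AGHMT, 0, 27.1 and 32.3 CPM in GHMT, 21.0, 27.5 and 12.4 CPM in CM, and 61.7, 71.1 and 131 CPM in E. Its fall was of like size in all 3 groups, -2.16, -2.07 and -2.11 on the log2 scale (SE 0.66, 0.68 and 0.66), with adjusted p = 0.0155, 0.0193 and 0.0173 in edgeR's quasi-likelihood test. Without E 3 Cenpf passed in none of the 3 groups. It also missed the threshold in AGHMT without any 1 of the AGHMT libraries and in CM without CM 1 or CM 3, and the highest adjusted p over all alternatives was 0.259 in AGHMT, 0.0718 in GHMT and 0.478 in CM.

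Cenpa, the histone H3 variant that marks centromeres, was the only gene of the 30 that passed in none of the 3 comparisons with E. It stood at 18.8, 23.2 and 22.3 CPM in AGHMT, 26.2, 27.1 and 4.81 CPM in GHMT, 11.9, 10.5 and 17.7 CPM in CM, and 19.97, 13.7 and 10.8 CPM in E. All 4 groups overlapped except for AGHMT and CM. Its log2 fold change was 0.53 (SE 0.52) in AGHMT, 0.37 (SE 0.55) in GHMT and -0.15 (SE 0.52) in CM, with adjusted p = 0.417, 0.574 and 0.838 in edgeR's quasi-likelihood test. The sign of each of these turned under at least 1 alternative. A p that misses the threshold does not show that the level was the same.

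Ccnb1, cyclin B1, the main partner of Cdk1, was the other exception, and its counts are uncertain. It stood at 22.5, 14.4 and 19.5 CPM in AGHMT, 72.1, 19.8 and 4.81 CPM in GHMT, 0.149, 0.403 and 0.172 CPM in CM, and 11.5, 12.2 and 19.1 CPM in E. CM stood below every other library, while AGHMT, GHMT and E overlapped. The log2 fold change against E was 0.40 (SE 0.66, adjusted p = 0.636) in AGHMT, 1.13 (SE 0.68, adjusted p = 0.172) in GHMT and -5.84 (SE 0.91, adjusted p = 0.000112) in CM in edgeR's quasi-likelihood test. Reads that matched several places were not counted, and the mouse genome holds processed copies of Ccnb1. The pseudogene Ccnb1-ps is 99.2% identical over 1287 bases, and it held 10, 50 and 12 reads in AGHMT, 1, 1 and 1 in GHMT and 1, 0 and 0 in CM, against 603, 628 and 138 in E. The gene itself had 293, 262 and 358 reads in AGHMT, 55, 38 and 7 in GHMT, 2, 4 and 1 in CM, and 685, 360 and 625 in E. With the copies Ccnb1-ps and Gm12856 added, the log2 fold change of AGHMT against E was -0.46 and so turned sign. The share of Ccnb1 reads that were lost as matching several places was not tested. Without GHMT 3, Ccnb1 passed as higher in GHMT than in E, with the smallest adjusted p of all alternatives, 0.0221, and without GHMT 1 its log2 fold change was -0.20.

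All 3 spindle genes fell in all 3 groups against E. Kif11, the motor Eg5 that pushes spindle poles apart, stood at 13.4, 9.91 and 10.5 CPM in AGHMT, 11.8, 5.21 and 15.1 CPM in GHMT, 3.72, 5.43 and 3.26 CPM in CM, and 48.6, 66.2 and 104 CPM in E. Nusap1, which bundles microtubules at chromosomes, stood at 11.8, 12.002 and 11.1 CPM in AGHMT, 5.24, 2.61 and 10.997 CPM in GHMT, 4.01, 4.13 and 1.55 CPM in CM, and 34.8, 40.6 and 48.4 CPM in E. Nusap1 kept 28.1% of the E mean in AGHMT, the highest share among the 28 genes that fell there, or -1.83 on the log2 scale (SE 0.50), with adjusted p = 0.00919 in edgeR's quasi-likelihood test. Hmmr, a microtubule-binding protein of the spindle poles, had log2 fold changes of -2.19 (SE 0.59) in AGHMT, -4.29 (SE 0.71) in GHMT and -6.03 (SE 0.73) in CM. Leaving out AGHMT 3 ended the calls of Nusap1 and Hmmr in AGHMT against E, with adjusted p up to 0.0584 and 0.111 over the alternatives.

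The 6 genes of the central spindle and of cytokinesis fell in all 3 groups against E. Prc1, which bundles the antiparallel microtubules of the central spindle, stood at 14.4, 14.3 and 13.1 CPM in AGHMT, 10.5, 5.73 and 8.25 CPM in GHMT, 5.80, 4.53 and 3.09 CPM in CM, and 92.0, 101 and 126 CPM in E. Racgap1 and Kif23 encode the 2 subunits of centralspindlin. Racgap1 stood at 2.77, 5.01 and 4.69 CPM in AGHMT, 1.31, 0 and 0.687 CPM in GHMT, 3.34, 3.32 and 2.40 CPM in CM, and 71.0, 70.1 and 59.6 CPM in E, and its 2 GHMT reads give 0.714% of the E level (interval 0.0865% to 2.58%). Kif23 stood at 9.07, 8.26 and 7.09 CPM in AGHMT, 1.31, 9.38 and 11.7 CPM in GHMT, 2.82, 2.82 and 1.89 CPM in CM, and 49.3, 55.1 and 71.8 CPM in E. Kif23 thus kept 13.9%, 12.7% and 4.28% of the E mean in AGHMT, GHMT and CM, and Racgap1 6.21% and 4.52% in AGHMT and CM. Ect2, the exchange factor that switches on RhoA at the cell equator, stood at 11.7, 10.2 and 9.98 CPM in AGHMT, 7.87, 19.3 and 0 CPM in GHMT, 1.71, 1.61 and 1.03 CPM in CM, and 44.1, 53.9 and 63.3 CPM in E. Its call in AGHMT against E (log2 fold change -2.34, SE 0.69, adjusted p = 0.0136 in edgeR's quasi-likelihood test) was lost without any 1 of the 3 AGHMT libraries and in limma, with an adjusted p up to 0.164. Anln, the scaffold anillin of the contractile ring, had log2 fold changes of -2.95 in AGHMT (SE 0.43), -2.81 in GHMT (SE 0.44) and -5.45 in CM (SE 0.49). Those of Kif20a, the motor that carries the passenger complex to the central spindle, were -4.25 in AGHMT (SE 0.45), -4.66 in GHMT (SE 0.51) and -4.65 in CM (SE 0.46).

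**Figure D3:**
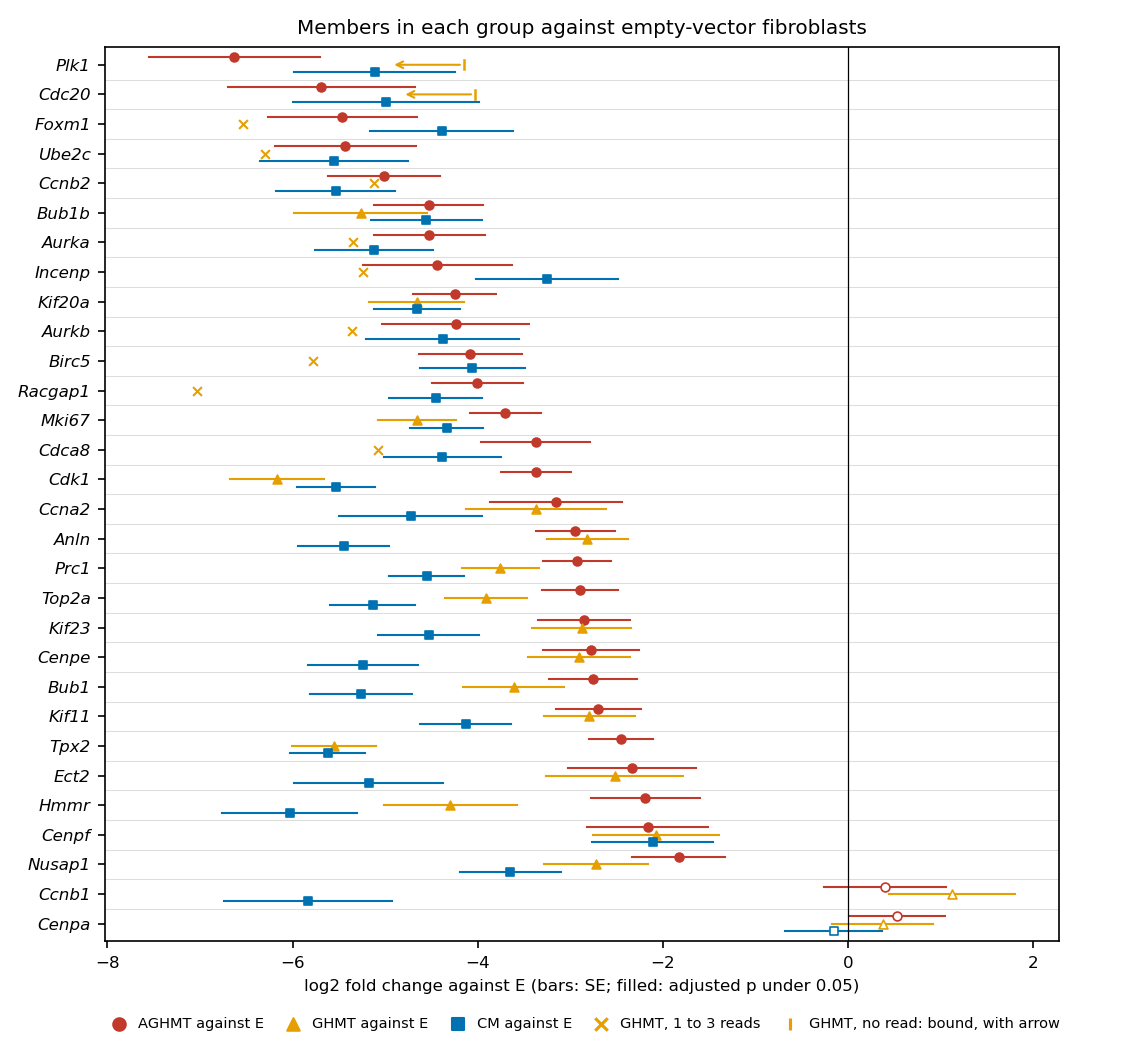
Log2 fold change of each gene against E (x axis) in AGHMT, GHMT and CM, with bars for the SE (none for the crosses), filled symbols for calls and genes in the order of their change in AGHMT. Crosses mark GHMT values from 1 to 3 reads and arrows start at the bound for Plk1 and Cdc20. Cenpa and Ccnb1 stand near or above 0 in AGHMT and GHMT, and of the AGHMT symbols Plk1 and Cdc20, at -6.63 and -5.69, are the farthest left.

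Between AGHMT and GHMT, 4 of the 30 genes were higher in AGHMT and none lower, where 13.2% of all tested genes were higher and 4.58% lower in edgeR's quasi-likelihood test. With only these 2 groups fitted, 22 of the 30 passed the filter on low counts, and 2 of them were higher. At an unadjusted p under 0.05, 6 were higher and none lower, and DESeq2 and limma each called 5 higher and none lower. Of all tested genes, DESeq2 called 2184 higher and 1594 lower of 15059, and limma 3721 higher and 956 lower of 14193. The median log2 fold change of the 30 was 0.84, against 0.63 over all tested genes, so the group as a whole moved little more than the rest. The 2 groups did not overlap for 13 of the 30, all higher in AGHMT, where 37.4% of all tested genes had every AGHMT library above every GHMT library, 8.47% every one below and 45.9% either. Tpx2 stood at 26.7, 24.3 and 22.5 CPM in AGHMT, against 1.31, 2.61 and 4.12 CPM in GHMT, which is 3.10 on the log2 scale (SE 0.44, adjusted p = 0.0007 in edgeR's quasi-likelihood test). The GHMT range of Tpx2 included that of CM, at 2.82, 3.32 and 1.89 CPM. Cdk1 was higher by 2.80 (SE 0.51, adjusted p = 0.00303 in edgeR's quasi-likelihood test), with the levels given above. Both calls held under all 25 alternatives, although the GHMT libraries held only 12 reads of Tpx2 and 6 of Cdk1 in all. Racgap1 rested on 213 reads in AGHMT and 2 in GHMT, a ratio of 8.90 (interval 2.43 to 74.0, counting error only). Its adjusted p was 0.0182 in edgeR's quasi-likelihood test, and the call was lost under 4 alternatives, among them without GHMT 2 and without AGHMT 2. Hmmr stood at 17.1, 14.6 and 15.1 CPM in AGHMT, against 0, 8.34 and 0.687 CPM in GHMT (log2 fold change 2.11, SE 0.69, adjusted p = 0.0477), and lost its call under 13 of 25 alternatives, with an adjusted p up to 0.175. Leaving out single libraries moved the count of higher genes between 2 and 7. It was 2 without AGHMT 2, and 7 without AGHMT 3 and without E 1. Of all tested genes, 865 of 15671 were higher without AGHMT 2, 2903 of 15668 without AGHMT 3 and 3851 of 15344 without E 1.

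Against the adult cardiomyocytes, 13 of the 30 genes were higher in AGHMT and none lower, where 23.7% of all tested genes were higher and 24.4% lower in edgeR's quasi-likelihood test. At an unadjusted p under 0.05, 14 were higher and none lower, whereas DESeq2 called 12 higher and 3, Incenp, Plk1 and Foxm1, lower. Of all 15059 tested genes DESeq2 called 2561 higher and 6279 lower. The median log2 fold change was 0.85, against -0.05 over all tested genes. Every AGHMT library stood above every CM library for 18 of the 30 and below for none, where 36.7% of all tested genes stood above, 33.9% below and 70.5% either. The 13 were Ccnb1, Hmmr, Tpx2, Ect2, Anln, Bub1, Cenpe, Top2a, Cdk1, Nusap1, Kif23, Prc1 and Kif11. Hmmr, at 15.6 ± 1.29 CPM in AGHMT and 1.04 ± 0.330 CPM in CM (SD, n = 3 each), was higher by 3.85 on the log2 scale (SE 0.67, adjusted p = 0.000502 in edgeR's quasi-likelihood test). Tpx2 was higher by 3.17 (SE 0.37, adjusted p = 1.85e-05), Anln by 2.50 (SE 0.44) and Bub1 by 2.50 (SE 0.50). The 4 genes of the passenger complex, Plk1, Aurka, Foxm1, Cdc20 and Ube2c passed in neither direction. Their log2 fold changes lay between -1.52 for Plk1 and 1.01 for Cdca8. All of these genes had a GC content above the median of the 30, as did Tpx2 and Cdk1, which passed. The changes against CM went with GC content, as described further below. Kif11 lost its call under 8 alternatives, Kif23 under 4, and Prc1, Ect2 and Nusap1 under 3 each.

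Between GHMT and CM, 8 of the 30 genes were higher and 1, Racgap1, was lower, where 23.8% of all tested genes were higher and 34.7% lower in edgeR's quasi-likelihood test. The median was 0.05, against -0.89 over all tested genes, and the groups did not overlap for 7 of the 30, 3 higher and 4 lower, where 18.4% of all tested genes stood apart as higher, 40.2% as lower and 58.6% either way. The higher genes were Ccnb1, Ect2, Anln, Cenpe, Bub1, Kif23, Kif11 and Top2a. Anln stood at 9.18, 19.8 and 30.2 CPM in GHMT, against 4.46, 3.22 and 1.89 CPM in CM (log2 fold change 2.63, SE 0.46, adjusted p = 0.00026 in edgeR's quasi-likelihood test). Both comparisons with CM share the CM libraries, and the difference between them was not tested. Anln and Ccnb1 kept their calls under every alternative, whereas the other 6 lost theirs under 4 to 16 of them. The split of calls also moved, to 4 higher and 4 lower with DESeq2 size factors and 3 higher and 8 lower in limma, against 8 higher and none lower for AGHMT against CM in limma. The calls of all tested genes moved as well. For GHMT against CM, 2844 were higher and 6481 lower of 15059 with DESeq2 size factors, and 2210 and 7219 of 14193 in limma. For AGHMT against CM in limma, 1890 were higher and 3750 lower of 14193. Between GHMT and CM, the count of higher genes was 4 without AGHMT 3 or without E 1 and 5 without GHMT 2 or without CM 3, and that of lower genes 0 without GHMT 2, 3 without GHMT 3 and 2 without GHMT 1, AGHMT 3 or E 1. Of all tested genes, 2664 were higher and 6089 lower of 15668 without AGHMT 3, and 2842 and 6283 of 15344 without E 1. They were 3311 and 4541 of 15885 without GHMT 2, and 3507 and 5096 of 15908 without GHMT 3. Racgap1 had 2 reads in GHMT and 92 in CM, 15.4% of the CM level (interval 1.83% to 57.1%), with an adjusted p = 0.0139 in edgeR's quasi-likelihood test that rose to 0.0685 without GHMT 2.

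**Figure D4:**
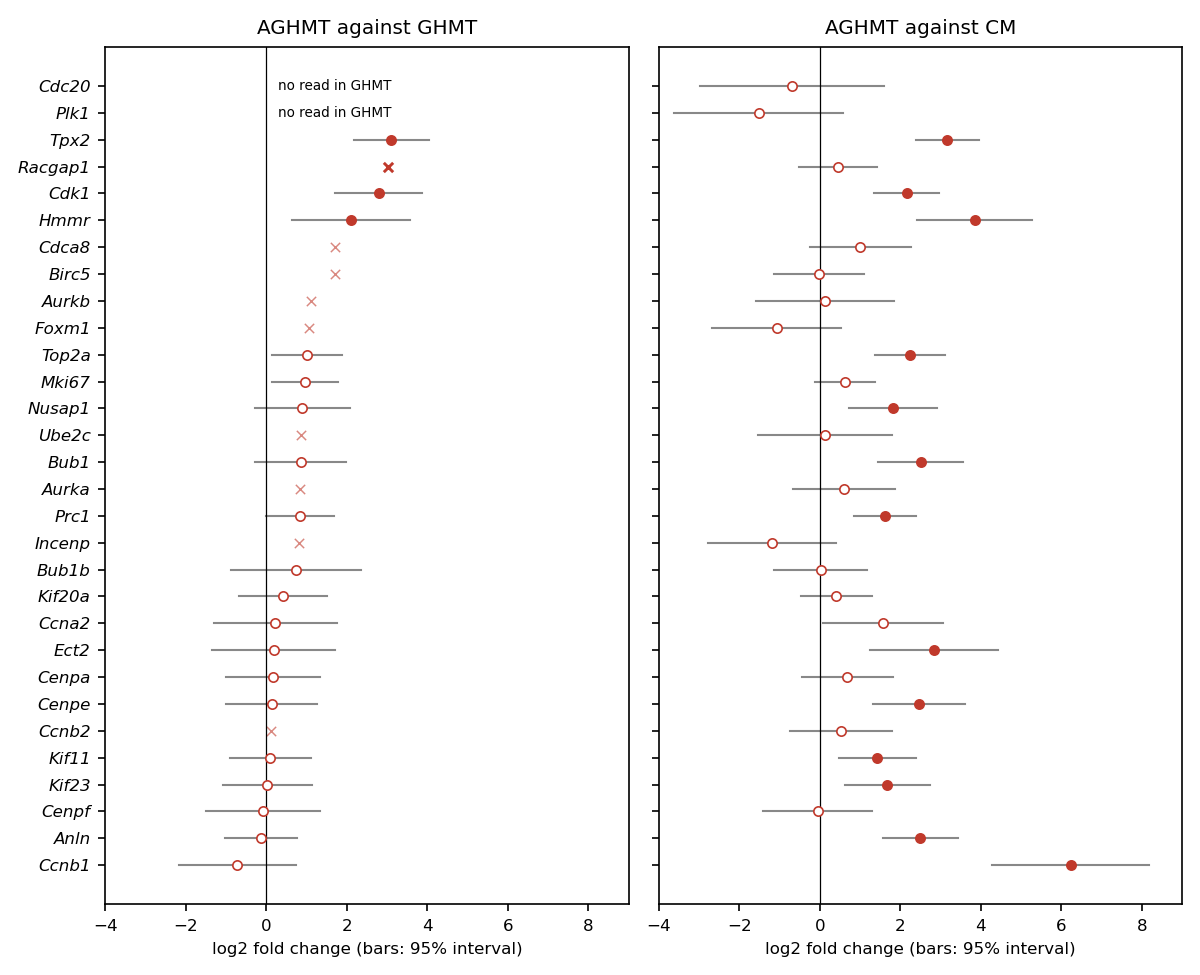
Log2 fold change of AGHMT against GHMT (left) and against CM (right) for each gene, with 95% intervals as bars and filled symbols for calls. Crosses mark genes with 1 to 3 reads in GHMT, bold for Racgap1, which passed. Tpx2, Cdk1 and Hmmr passed on both sides, and 13 genes passed on the right.

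The size of the fall against E went with the base composition of the transcripts in the reprogrammed groups. Across the 30 genes, the log2 fold change and the GC content of the longest transcript had a Pearson correlation of -0.71 in AGHMT (Spearman -0.81) and -0.67 in GHMT (Spearman -0.72), but 0.04 in CM (Spearman 0.10). In GHMT it was -0.54 over 28 genes without Plk1 and Cdc20. These are correlations across genes that share the same libraries, and genes are not independent replicates. Over 14982 tested genes with a GC value the correlations were -0.41, -0.40 and 0.09. The 15 members above the median GC of 47.0% had a median log2 fold change of -4.44 in AGHMT against E, and the 15 below it -2.78. In CM against E the 2 medians were -4.65 and -4.73. After a correction for GC and length the Pearson correlation was -0.29 in AGHMT (Spearman -0.41) and -0.31 in GHMT (Spearman -0.04). Both cover all 30 genes, with Plk1 and Cdc20 at their fitted values in GHMT. The medians in AGHMT were then -4.001 and -3.39, and 28, 28 and 29 genes were still lower in AGHMT, GHMT and CM. Of all 15059 tested genes, 2944, 2437 and 3734 were lower after it. The order of the genes within AGHMT and GHMT therefore depends on this correction, and the part of GC content in it was not tested. Libraries of a single group differed along the same axis. The deviations of the genes from the E mean correlated with GC content at 0.88 in E 1, 0.65 in E 2 and -0.89 in E 3, and those from the CM mean at -0.79 in CM 2 and 0.84 in CM 3. Cdc20, at the high end of GC content, was highest in E 1 and lowest in E 3, and Top2a, at a lower GC content, was lowest in E 1 and highest in E 3.

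**Figure D5:**
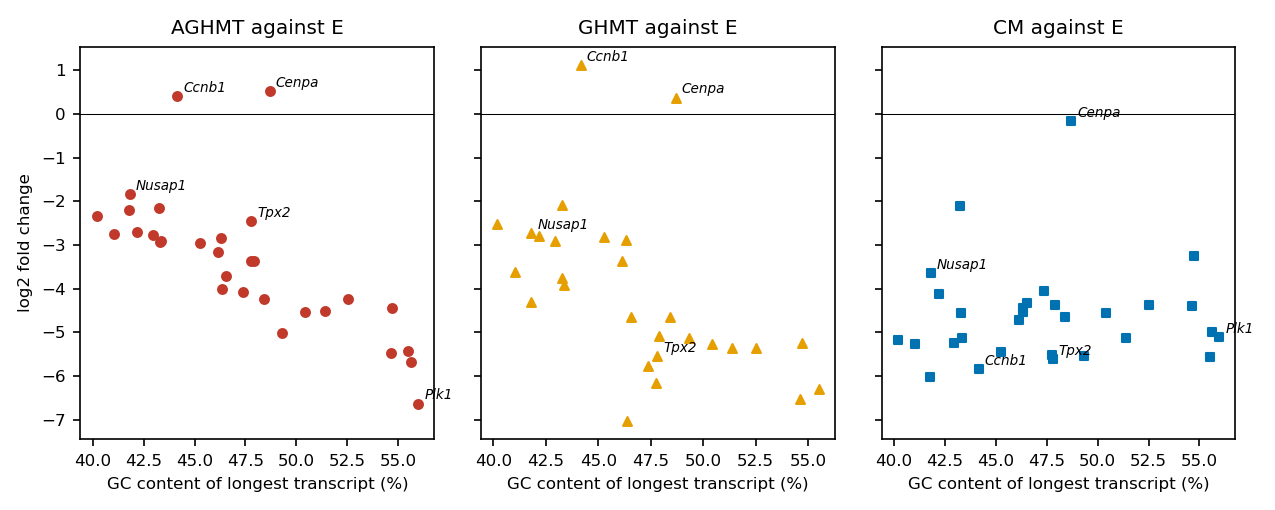
Log2 fold change against E (y axis) and GC content of the longest transcript in percent (x axis) for the 30 genes in AGHMT and CM, and for 28 in GHMT, without Plk1 and Cdc20. The points slope down in AGHMT and GHMT and are level in CM.

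Other genes of the same pathway, 117 in 7 lists of which 113 were tested, moved in the same direction for the larger part. In AGHMT against E 66 fell (58.4%) and 3 rose (2.65%), where 24.6% of all tested genes fell and 21.9% rose. In GHMT 66 fell (58.4%) and 7 rose (6.19%), where 32.9% of all tested genes fell and 19.8% rose. In CM 80 fell (70.8%) and 3 rose (2.65%), where 22.5% of all tested genes fell and 19.5% rose. The median log2 fold changes were -1.86 in AGHMT, -2.28 in GHMT and -2.53 in CM, against -0.16, -1.06 and -0.26 over all tested genes. Between AGHMT and GHMT 12 were higher (10.6%) and 3 lower (2.65%), both shares below those of all tested genes, 13.2% and 4.58%. Other spindle and motor genes fell in 14, 15 and 16 of 16 cases in AGHMT, GHMT and CM. Ckap2, a spindle-pole protein of this list, stood at 24.6, 20.7 and 30.2 CPM in AGHMT, 9.18, 37.0 and 24.1 CPM in GHMT, and 1.56, 1.61 and 0.344 CPM in CM, higher than CM by 4.34 (SE 0.58) and 4.28 (SE 0.59) in edgeR's quasi-likelihood test. Kif2c, a kinesin that takes microtubules apart at centromeres, had log2 fold changes of -5.73 (SE 0.85) in AGHMT and -6.01 (SE 0.88) in CM against E. Of 13 condensin, cohesion and separase genes, 9 fell in each of the 3 groups. Smc4, the core ATPase of condensin, stood at 193, 137 and 143 CPM in AGHMT, 223, 256 and 199 CPM in GHMT, 36.1, 53.6 and 18.6 CPM in CM, and 114, 159 and 281 CPM in E. It passed as lower than E in CM and not in AGHMT or GHMT, but after the correction for GC and length it passed as lower in both, at -1.20 in AGHMT and -0.79 in GHMT, and in GHMT also with total counts. Of 21 tested kinetochore and checkpoint genes, 12, 11 and 17 fell, of 13 tested mitotic entry genes 10, 7 and 12, and of 12 other cytokinesis genes 7, 8 and 11.

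Of 16 tested genes of the anaphase-promoting complex and its regulators, 8 fell in AGHMT, 8 fell in GHMT and 6 fell in CM against E. Anapc10, a core subunit, rose in GHMT (log2 fold change 1.52, adjusted p = 0.00564 in edgeR's quasi-likelihood test), a call lost under 4 alternatives, with 0.22 after the correction for GC and length. Cdc27, a core subunit, stood at 255, 183 and 216 CPM in AGHMT, 271, 302 and 263 CPM in GHMT, 40.8, 60.6 and 21.6 CPM in CM, and 123.2, 169 and 264 CPM in E. Against E it passed in CM (log2 fold change -2.17, SE 0.38, adjusted p = 0.000294 in edgeR's quasi-likelihood test) and not in AGHMT (0.23, SE 0.36) or GHMT (0.59, SE 0.36). After the correction for GC and length it passed as lower in both, at -0.80 in AGHMT and -0.64 in GHMT. Cdc23, another core subunit, stood at 17.4, 23.0 and 18.05 CPM in AGHMT, against 3.93, 1.56 and 2.06 CPM in GHMT (log2 fold change 3.09, SE 0.48), and overlaps Kif20a on the other strand. Sept2, a septin of the cytokinetic furrow and of other cell structures, was higher in GHMT, at 2339.9, 2332 and 1754 CPM, than in E, at 456, 468 and 624 CPM (log2 fold change 2.05, SE 0.28). That value was 0.85 after the correction for GC and length, and the call was lost with total counts (adjusted p = 0.117 in edgeR's quasi-likelihood test). Of the 22 regulators of the DREAM, MuvB, E2F and NF-Y families, 6 fell and 3 rose in AGHMT, 8 fell and 3 rose in GHMT, and 9 fell and 2 rose in CM. The shares that fell, 27.3%, 36.4% and 40.9%, stood beside 24.6%, 32.9% and 22.5% of all tested genes, so that those of AGHMT and GHMT were near the background. Rb1, the retinoblastoma protein that restrains E2F, stood at 92.5, 68.0 and 76.6 CPM in AGHMT, 215, 121 and 127 CPM in GHMT, 26.0, 41.7 and 17.5 CPM in CM, and 12.9, 17.1 and 25.3 CPM in E. Neither AGHMT nor GHMT overlapped E for Rb1, with log2 fold changes of 2.10 (SE 0.39, adjusted p = 0.000804) and 3.06 (SE 0.41, adjusted p = 4.73e-05) in edgeR's quasi-likelihood test. After the correction for GC and length they were 1.21 and 2.17, and both calls held under all alternatives. Mybl2, the B-MYB subunit of the activating MuvB complex, stood at 0, 0.0551 and 0.109 CPM in AGHMT, from 3 reads in all, against 4.70, 3.92 and 1.71 CPM in E, and had no read in GHMT. E2f1, an activating E2F, fell in CM against E, at 1.11, 0.604 and 2.06 CPM in CM and 20.4, 12.03 and 3.52 CPM in E (log2 fold change -3.28, SE 0.75).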

How the data were processed

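RNA was measured in 12 libraries, grouped by their labels. Per the labels' protocols it was isolated with TRIzol and made into libraries with a stranded Illumina kit. Per the submitters' processing notes, Bowtie2 2.0.6, HTSeq, DESeq and mm10 were used, and no source used here names the annotation or strand setting. The authors deposited raw counts of reads per Ensembl gene. Reads without a feature, 8.45% to 20.2% of uniquely aligned reads, and reads that aligned to several places were left out. The deposited normalized signal equalled count over size factor (whole within 0.001). Symbols, lengths and GC content came from GENCODE M21 (GRCm38, as mm10).

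Counts were filtered (filterByExpr, minimum count 10 and total 15), scaled by TMM and fitted over all 12 libraries with edgeR 4.0.16 in R 4.3.3, with robust quasi-likelihood and Benjamini-Hochberg adjustment over 15059 genes. "Rose", "fell", "passed" and "call" refer to an adjusted p under 0.05. Of the genes outside the 30, those named have, in a list, the highest level or the largest passing change in a comparison. The 30 genes and all lists were chosen with earlier results of these data known. The SE of a log2 fold change in edgeR was its absolute value divided by the square root of the test's F statistic. The fit itself gave no SE, and the 95% intervals of log2 fold changes follow from this value. Exact 95% intervals of pooled reads were computed, and a gene without reads had a floor of 3 counts over the group. Alternatives were other scalings and filters, DESeq2 1.42.0, limma 3.58.1 on log2 of the authors' normalized values plus 1, a replicate block, thinning, a GC and length correction, and leaving out libraries. Leaving out both GHMT 1 and CM 3, and adding near-identical copies, were chosen after seeing the data.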

Additional observations from a re-analysis of the deposited data

How the results depend on the processing

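The counts of lower genes against E stayed within 1.5 times under every alternative. They were 24 to 28 in AGHMT, 27 to 28 in GHMT and 28 to 29 in CM when single libraries were left out, and the count of higher genes there was 0 to 0, 0 to 1 and 0 to 0. Limma gave 25, 28 and 27, and thinning 25, 25 and 24 of the 27 genes it could test. Over all tested genes limma called 2677, 6791 and 2094 of 14193 lower, and thinning 1633, 2789 and 1574 of 8809. Of 85 calls against E, 7 were lost under at least 1 alternative. The count of genes higher in AGHMT than in GHMT, 4, was 7 without mitochondrially encoded genes. It was 2 of 22 tested with only these 2 groups fitted and 2 of 27 tested after thinning. Without single libraries it was 2 to 7, where 0 to 0 were lower. Over all tested genes the higher calls moved too, from 1993 of 15059 to 3188 of 14532 without mitochondrially encoded genes. They were 1074 of 10780 with only these 2 groups and 935 of 8809 after thinning. For GHMT against CM, the 8 higher genes were 4 with DESeq2 size factors, 4 with total counts, 4 without mitochondrially encoded genes, 5 in DESeq2, 3 in limma, 2 with only these 2 groups, 4 after thinning and 3 after the GC and length correction, and 4 to 8 without single libraries. The 1 lower gene was 4 with DESeq2 size factors, 2 with total counts, 2 without mitochondrially encoded genes, 4 in DESeq2, 8 in limma, 0 with only these 2 groups and 2 without GHMT 1 and CM 3, and 0 to 3 without single libraries. Of all 15059 tested genes, 3588 were higher and 5233 lower in the main fit, and 2844 and 6481 with DESeq2 size factors. They were 2761 and 5626 with total counts, 3095 and 6646 in DESeq2, and 3916 and 3022 after the GC and length correction. Without mitochondrially encoded genes they were 2915 and 6179 of 14532, and in limma 2210 and 7219 of 14193. With only these 2 groups they were 1889 and 3091 of 9328, and after thinning 2362 and 3127 of 8809. For AGHMT against CM, the 13 higher genes were 8 in limma and 8 after thinning, and 12 to 14 without single libraries, and the 0 lower genes were 3 in DESeq2 and 0 to 0 without single libraries. Over all tested genes, 1890 of 14193 were higher in limma and 1739 of 8809 after thinning, and 6279 of 15059 were lower in DESeq2. The cause of these moves was not tested. No label says that equal replicate numbers mark shared material, and their correlations were -0.72 to 0.13. With the replicate number as a block, 3 genes were higher in AGHMT than in GHMT, 28, 28 and 29 lower against E in AGHMT, GHMT and CM, 6 higher and 1 lower in GHMT than in CM, and 13 higher in AGHMT than in CM. Over all 15059 tested genes the block fit called 1049 higher in AGHMT than in GHMT, and 2867, 4383 and 2847 lower against E. It called 3115 higher and 4649 lower in GHMT than in CM, and 3115 higher in AGHMT than in CM. Signs turned for Ccnb1 and Cenpa only, among the 30 genes tested against E. Ccnb1 in AGHMT was -0.45 with total counts, -0.13 after the GC and length correction and -0.46 with its copies. In GHMT it was -0.71 with total counts and -0.19 without GHMT 1 and CM 3, and -0.20 to 1.61 without single libraries. Cenpa was -0.29 in AGHMT and -1.09 in GHMT with total counts, -0.11 in GHMT in limma, and -0.14 to 0.83 in GHMT without single libraries. In CM, Cenpa was 0.29 with DESeq2 size factors, 0.13 without mitochondrially encoded genes, 0.29 in DESeq2, 0.26 in limma, 0.40 after thinning, 0.25 after the correction, and -0.40 to 0.0246 without single libraries. The depth of GHMT, where 11 of 30 genes had at most 3 reads, limits every statement on single genes there.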
